A study of Mus musculus with 20 samples.

Results

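The comparison described here set injured left hemispheres of mice given the peptide IDR1018 against injured left hemispheres of mice given none. Its members were chosen by sample title and hemisphere: 5 arrays with peptide and 5 without, which are 10 of the 20 arrays of the series. All 10 animals were C57/Bl6 mice, described as adult. They were sensitised with lipopolysaccharide (LPS) and then exposed to hypoxia-ischemia (HI), and 5 of them also received IDR1018. In left arrays without peptide, genes of immature neurons and neurogenesis averaged 10.77 on the log2 scale. Genes of mature oligodendrocytes and myelin averaged 8.85 there, and the 4 measured oligodendrocyte markers 10.03. Averages over different probe sets do not compare directly between lists. The stage of the animals was not tested. The groups with peptide are called LPS + HI + IDR1018 in the titles and the others LPS + HI. The other 10 arrays hold the uninjured right hemispheres of the same animals. No group without LPS and HI is among the samples. Dose and time of the peptide, age in weeks and time of collection are not given in the sources used here. Whole hemispheres were frozen and total RNA was extracted, so each value is an average over injured and spared tissue of every cell type. Fewer cells of a type and less RNA per cell cannot be told apart in such samples.

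IDR1018 is a synthetic innate defence regulator, a short peptide derived from the bovine host defence peptide bactenecin. Peptides of this class are known less for killing bacteria directly than for altering how immune cells answer bacterial products, including LPS. In LPS-sensitised hypoxia-ischemia, LPS engages Toll-like receptor 4 on microglia, endothelium and blood cells before oxygen and blood supply are interrupted, and the injured tissue goes on to make interleukin-1, chemokines and heat shock proteins. Endothelial cells form the barrier through which leukocytes must pass, and they answer cytokines by displaying adhesion molecules. The question of the comparison is which transcripts in the injured tissue differ when the peptide was given.

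The labelled tissue carried its markers. Snap25, a synaptic vesicle fusion protein of neurons, had a mean of 13.3 on the log2 scale without peptide. The means of Gfap, the astrocyte filament protein, and of Mbp, a myelin protein, were 11.6 and 11.1. The median of the control probe sets was 6.81 on the same scale and serves below as the level under which a gene counts as not clearly measured. Array medians lay between 8.21 and 8.23, and the 10 left arrays correlated with each other at 0.997 to 0.998 across probe sets. The level of the control probe sets averaged 6.79 without peptide and 6.80 with it (two-sided exact permutation test p = 0.786, whose smallest possible value is 0.00794). The male-specific and female-specific transcripts gave 3 male and 2 female animals without peptide, and 2 male and 3 female animals with it. For that reason Xist and Y-linked genes were left out of the genes named below.

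No probe set passed the test. Of 28187 probe sets, 0 (0%) had an adjusted p under 0.05 by limma, and the smallest adjusted p was 0.675, that of Kdr. At an unadjusted p under 0.05 there were 1226 (4.35%), of which 584 (2.07%) were higher and 642 (2.28%) lower with peptide. The count past the adjusted threshold was also 0 in 21 of 22 other settings and 1 in the fit without peptide replicate 5. In 159 probe sets (0.564%) the groups did not overlap, with 81 lower (0.287%) and 78 higher (0.277%) in all peptide arrays. The median probe set had a 95% interval of ± 0.114 log2 units around its difference. In 99.3% of probe sets the interval lay within 1.5-fold of no difference, and in 89.4% within 1.2-fold. These shares include probe sets below the control level, and the intervals are not adjusted for the number of probe sets. Intervals were wider for genes that vary between animals, with a median half-width of 0.29 for immediate early genes and 0.19 for chemokine ligands. Each gene was read from its probe set with the highest mean. Of 19937 genes, 7 were lower by 1.5-fold or more and 1 was higher, and at 1.2-fold the counts were 50 lower and 25 higher. These counts include Xist, which was the 1 gene higher by 1.5-fold or more, and Y-linked genes. The gene with the lowest difference, -0.91, was Y-linked. Of lower genes that are not Y-linked and lie above the control level, only Il1a, Il1b and Hspa1a reached 1.5-fold. Every gene named below missed the threshold by limma. Adjusted p was 0.675 for Kdr, 0.709 for Tnfsf10 and 0.999 for each of the others in this comparison. Values after ± are SE for differences and SD for group means, each over 5 arrays a group.

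**Figure D1:**
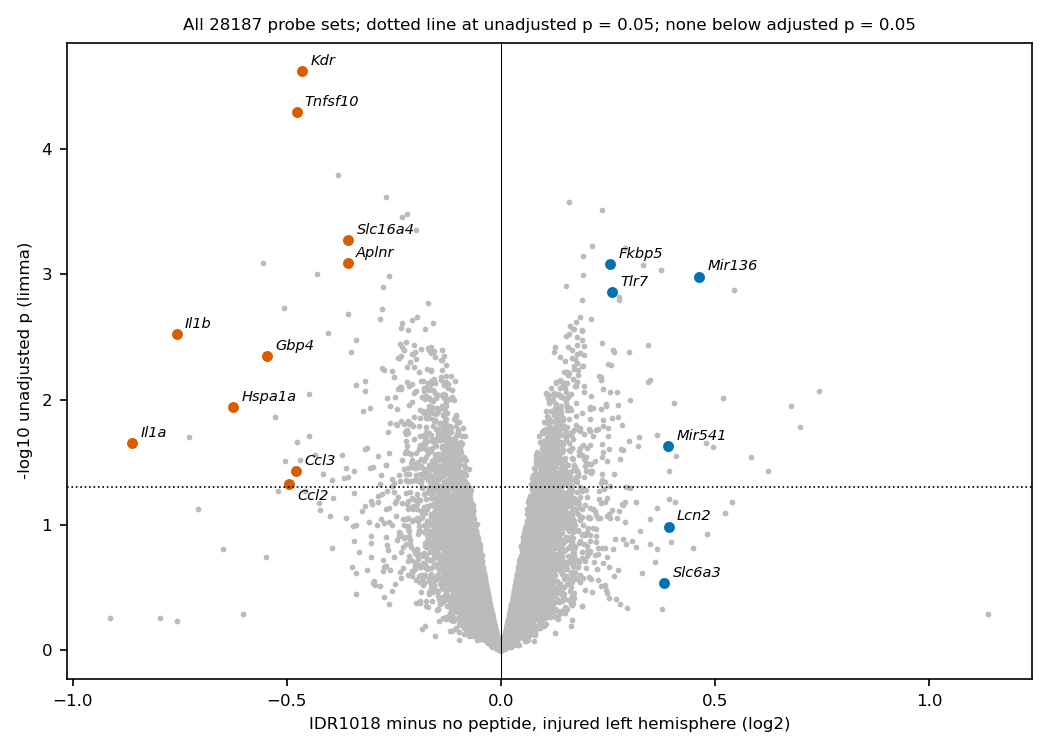
Difference between peptide and no peptide in the injured left hemisphere (log2, x axis) against -log10 of the unadjusted limma p (y axis) for all 28187 probe sets, with lower named genes in orange and higher ones in blue. Kdr and Tnfsf10 lie at the top on the lower side with differences of -0.46 and -0.48, Il1a and Il1b lie further left with larger SE, and no point passed an adjusted p of 0.05 (dotted line: unadjusted p of 0.05).

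The 12 genes with the smallest p on the lower side included the endothelial genes Kdr, Aplnr, Sox7, Clec14a and Slc16a1. Kdr, the main signalling receptor for vascular endothelial growth factor, had levels of 9.21, 9.22, 9.34, 9.44 and 9.35 in no-peptide replicates 1 to 5. In peptide replicates 1 to 5 it had 8.87, 8.73, 8.77, 8.78 and 9.09. Every peptide array lay below every no-peptide array, and peptide replicate 5 came nearest to them. The difference was -0.46 ± 0.07, or 1.38-fold lower (95% interval -0.62 to -0.31, adjusted p = 0.675 by limma). Without peptide replicate 5 it was -0.53 with an adjusted p of 0.0296, the only adjusted p under 0.05 in any of 22 alternatives, in which it ranged up to 1. Aplnr, the receptor for apelin on sprouting vessels, had 9.03, 9.12, 9.45, 9.18 and 9.36 without peptide. With peptide it had 8.86, 8.84, 8.71, 9.02 and 8.93, again without overlap, for a difference of -0.36 ± 0.08.

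Other endothelial genes were lower by smaller amounts than Kdr and Aplnr. Sox7, a transcription factor of vessel development, differed by -0.28 ± 0.07 and did not overlap between groups. The endothelial lectin Clec14a differed by -0.28 ± 0.07, with 4 of its 5 peptide values between 7.48 and 7.70 and the no-peptide values from 7.76 upwards. Slc16a1, which carries lactate and ketone bodies across the barrier, differed by -0.20 ± 0.05, with 11.20, 11.03, 11.10, 11.19 and 11.19 without peptide against 10.99, 11.02, 10.86, 11.01 and 10.84 with it. These groups touched closely but did not overlap, since the lowest no-peptide array was at 11.03 and the highest peptide array at 11.02. Slc16a4, a relative in the same monocarboxylate transporter family, is in none of the endothelial lists and differed by -0.36 ± 0.08, as much as Aplnr. Only its peptide replicate 5, at 7.36, reached the no-peptide range of 7.35 to 7.53. Eng, a co-receptor for TGF-beta on endothelium, differed by -0.24 ± 0.08. Cldn5, the tight junction protein of the barrier, averaged 11.8 ± 0.11 without peptide and 11.6 ± 0.07 with it, a difference of -0.16 ± 0.06. Nos3, the endothelial nitric oxide synthase, also differed by -0.16 ± 0.05.

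The endothelium and blood-brain barrier list, which does not hold Kdr, Aplnr, Sox7 or Clec14a, had lower values with peptide for 21 of its 25 measured genes, against 50% of all 19937 genes. Its median difference was -0.098 and that of all genes 0.00. Of its members 9 were lower at an unadjusted p under 0.05 by limma and 0 were higher, where 2.17% and 1.92% of all genes were. When single arrays were left out, the medians of 19 of the 49 lists changed sign in 1 or more fits, and those of 25 more moved by over 1.5 times. The other 5 lists, which did neither, were the Notch pathway, heat shock chaperones, leukocyte adhesion, choroid plexus and ependyma. Members of the endothelium list without a lower value included Mfsd2a, the lipid transporter of the barrier, at 0.12, the efflux pump gene Abcb1a at 0.003, and the glucose transporter gene Slc2a1 at 0.086. In the list of VEGF and angiopoietin signalling 12 of 16 were lower, with a median of -0.030. Beside Kdr, the growth factor gene Vegfa was lower by value (-0.17 ± 0.06), and Tek, the angiopoietin receptor, chosen after its values were seen, differed by -0.17 ± 0.08. The Notch pathway, which restrains vessel sprouting and keeps stem cells undivided, had lower values for 13 of 16 genes (median -0.068), led by Notch1 at -0.18 ± 0.05 and its target Nrarp at -0.16 ± 0.05. For pericytes and smooth muscle, the cells that wrap the same vessels, 8 of 15 were lower with a median of -0.009. Rgs5, a pericyte gene, differed by -0.12 ± 0.05 and Cspg4, the NG2 proteoglycan of pericytes and oligodendrocyte precursors, by 0.17 ± 0.05.

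The mean level over the endothelium list was 9.78, 9.82, 9.97, 9.81 and 9.90 without peptide and 9.72, 9.74, 9.77, 9.80 and 9.84 with it. The highest was no-peptide replicate 3. Without that array the list median was -0.038, with 20 to 22 of 25 genes lower in every left-out fit. Red blood cell RNA also had a lower value: Alas2, an enzyme of heme synthesis and the only measured gene of that marker list, chosen after its values were seen, differed by -0.17 ± 0.07. The part of red cells and of no-peptide replicate 3 in the endothelial values was not tested.

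Tnfsf10 had the next smallest p. It encodes TRAIL, a death ligand induced by interferon in many cell types. Its levels without peptide were 7.33, 7.29, 7.43, 7.55 and 7.60, and with peptide 6.96, 7.04, 6.77, 7.15 and 6.89. Of the 10 left arrays 9 were above the control level, and peptide replicate 3 was not. The groups did not overlap. The difference was -0.48 ± 0.08, or 1.39-fold lower (95% interval -0.65 to -0.31, adjusted p = 0.709 by limma), and adjusted p ranged from 0.0554 with the Xist level as covariate to 1 over the alternatives. Of the TNF superfamily ligands 11 of 15 were lower, with a median of -0.035. Fasl, the related ligand of Fas, differed by -0.12 ± 0.04 without overlap but lay near the control level. Among the receptors of the family 8 of 17 were lower (median 0.0005). Tnf itself differed by -0.19 ± 0.15 and overlapped widely, since the peptide values of 7.26 to 7.52 all fell within the no-peptide range of 7.22 to 8.15.

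Il1a and Il1b had the largest differences among the genes named by size, and they and the chemokines varied widely between animals without peptide. Il1a, an alarm cytokine released by damaged cells, had 8.46, 7.63, 9.54, 8.07 and 8.79 without peptide. With peptide it had 7.72, 8.03, 7.82, 7.89 and 6.72. No-peptide replicate 3 was highest and peptide replicate 5 lowest, while no-peptide replicate 2 lay below 4 of the 5 peptide arrays. The difference was -0.86 ± 0.33, or 1.82-fold lower (95% interval -1.58 to -0.15). Peptide replicate 5 was below the control level. Without no-peptide replicate 3 the difference was -0.60, and without no-peptide replicate 2 it was -1.08. Il1b, the fever cytokine activated by the inflammasome, had 7.75, 7.03, 8.04, 7.24 and 8.06 without peptide and 6.78, 7.04, 6.81, 7.25 and 6.46 with it. Here no-peptide replicates 1, 3 and 5 stood above all peptide arrays, and replicates 2 and 4 were level with peptide replicates 2 and 4. The difference was -0.76 ± 0.20, or 1.69-fold lower (95% interval -1.20 to -0.31). Of the 10 left arrays 7 were above the control level for Il1b, and peptide replicates 1, 3 and 5 were not, so their values are not clearly measured and the size is uncertain. In the whole interleukin-1 and inflammasome list, with these genes included, 10 of 19 values were lower and the median was -0.009. Il1rn, the receptor antagonist that blocks both cytokines, differed by -0.08 ± 0.06, but its mean lay below the control level.

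Both interleukin-1 genes lie on chromosome 2. Their promoters are given for the largest differences among the named genes, and that of Kdr for the smallest p. Each run holds the 250 bases before the transcription start in RefSeq's GRCm38.p6, 5′ to 3′ on the gene's strand. Capitals mark a match to the NF-kB consensus or to the AP-1 motif TGANTCA, searched on both strands with no overlap between the motifs here.
Il1a (chr2:129309973-129310222, minus strand): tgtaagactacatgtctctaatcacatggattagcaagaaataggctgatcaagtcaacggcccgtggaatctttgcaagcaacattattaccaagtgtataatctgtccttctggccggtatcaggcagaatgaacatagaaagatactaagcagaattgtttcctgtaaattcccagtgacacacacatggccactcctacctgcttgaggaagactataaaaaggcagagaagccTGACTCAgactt
Il1b (chr2:129371140-129371389, minus strand): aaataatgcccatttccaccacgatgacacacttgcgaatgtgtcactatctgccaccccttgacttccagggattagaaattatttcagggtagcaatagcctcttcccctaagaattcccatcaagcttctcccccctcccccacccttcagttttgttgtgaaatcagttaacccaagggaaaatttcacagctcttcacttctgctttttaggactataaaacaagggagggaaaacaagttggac
Kdr (chr5:75978456-75978705, minus strand): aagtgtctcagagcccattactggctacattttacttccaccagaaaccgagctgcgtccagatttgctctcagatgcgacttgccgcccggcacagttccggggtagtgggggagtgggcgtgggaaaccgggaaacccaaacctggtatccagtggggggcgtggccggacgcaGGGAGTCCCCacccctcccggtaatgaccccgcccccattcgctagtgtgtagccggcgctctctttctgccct
Il1a held an AP-1 match that starts at -12, Kdr held an NF-kB match that starts at -74, and Il1b held neither in this window. Over all 32851 promoters of the table, 7.25% held an NF-kB match and 6.75% an AP-1 match in the same 250 bases. Of the 38 genes named for smallest p or largest difference, 25 had a promoter there, and 4 of them held an NF-kB match and 1 an AP-1 match. A match describes the letters only.

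Chemokine ligands, which draw leukocytes into tissue, had lower values with peptide in 19 of 22 genes (median -0.12), and 6 were lower at an unadjusted p under 0.05 by limma with 0 higher (2.17% and 1.92% of all genes). Ccl2, the monocyte attractant, had 10.16, 9.36, 10.64, 9.97 and 10.27 without peptide. With peptide it had 9.52, 9.67, 9.50, 10.15 and 9.10, so that the groups overlapped between 9.36 and 10.15. The difference was -0.49 ± 0.22, or 1.41-fold lower. Ccl3, which attracts macrophages, differed by -0.48 ± 0.20, and Ccl7, another monocyte attractant, by -0.47 ± 0.19, both with overlap. Ccl6, made by microglia and macrophages, differed by -0.22 ± 0.09. Cxcl10, an interferon-induced chemokine, differed by -0.04 ± 0.17 with the sign turning when any of 4 arrays was left out, and Cxcl13, a B cell attractant chosen after its values were seen, by 0.14 ± 0.07. Chemokine receptors showed no such lean, with 8 of 14 lower and a median of -0.008. The mean over the ligands was 8.61, 8.46, 8.83, 8.50 and 8.84 without peptide and 8.42, 8.60, 8.41, 8.65 and 8.37 with it. No-peptide replicates 3 and 5 were highest and peptide replicate 5 lowest, and the list median ranged from -0.16 to -0.075 when single arrays were left out.

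**Figure D2:**
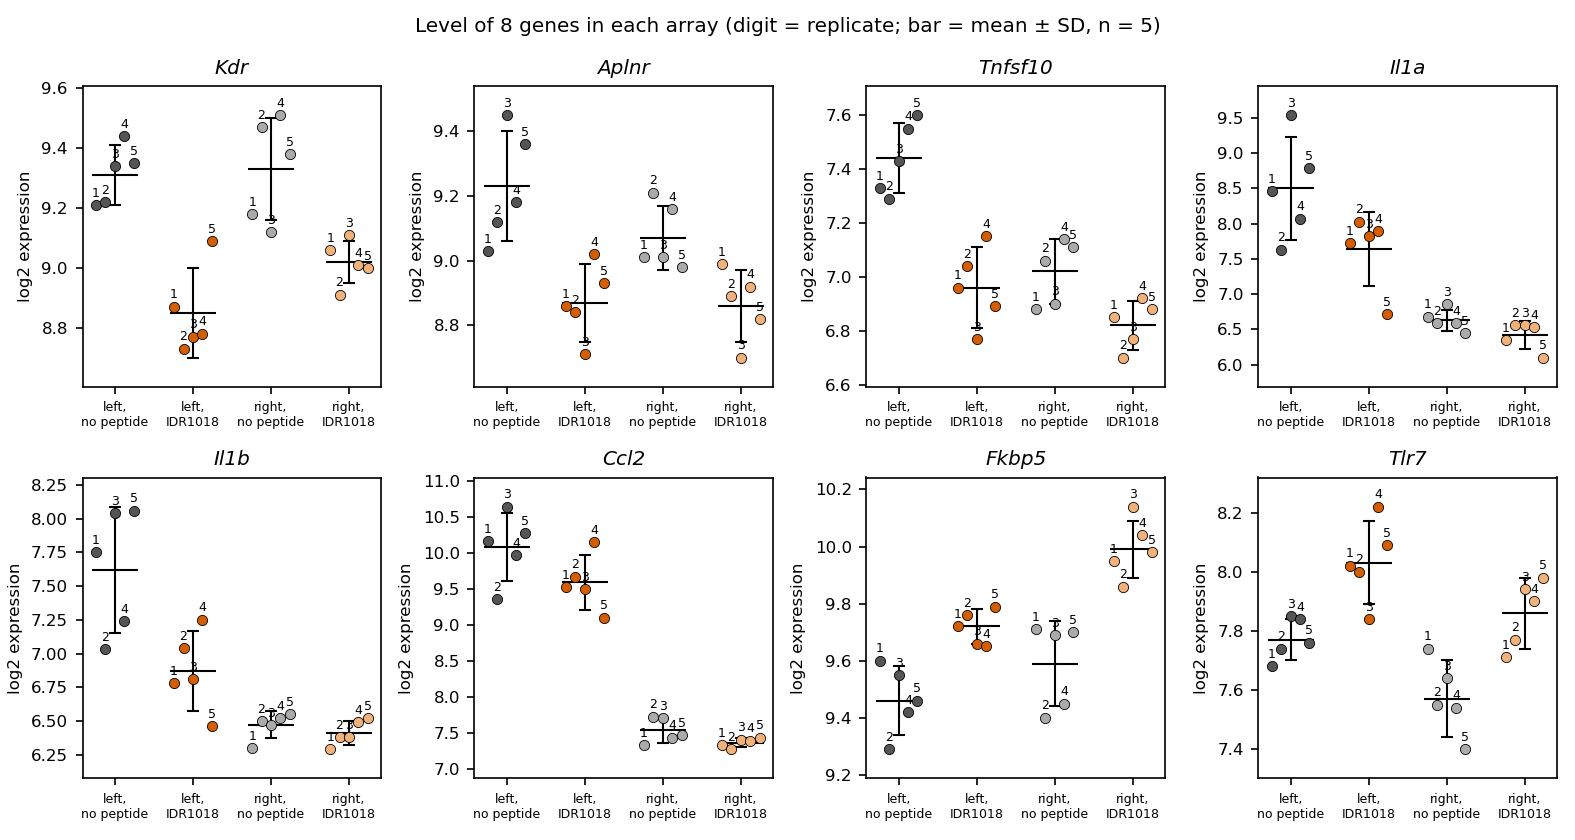
Log2 level (y axis) of 8 genes in each of the 20 arrays, grouped by hemisphere and peptide, with the replicate number beside each point and bars for mean ± SD (n = 5). In the left hemisphere Kdr, Aplnr and Tnfsf10 are lower and Fkbp5 is higher in every peptide array, while Il1a, Il1b, Ccl2 and Tlr7 overlap between the groups.

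The same arrays stood apart for other genes of the injured tissue. Hspa1a, an inducible heat shock chaperone, had 10.34, 10.22, 11.22, 10.77 and 11.08 without peptide and 10.00, 10.22, 9.98, 10.64 and 9.65 with it. No-peptide replicates 3 and 5 were again highest and peptide replicate 5 lowest, with a difference of -0.63 ± 0.21, or 1.54-fold lower. Heat shock chaperones as a list were lower in 13 of 16 genes with a median of -0.067. Gbp4, an interferon-induced GTPase, differed by -0.55 ± 0.16, with 7.40, 7.37, 8.16, 7.79 and 8.12 against 7.04, 7.42, 7.10, 7.44 and 7.11. Plau, the urokinase that activates plasminogen, differed by -0.45 ± 0.17. Its list of plasminogen and matrix genes was lower in 13 of 20, with a median of -0.026. Immediate early genes, which neurons and glia switch on within minutes of a stimulus, were lower in 19 of 22 (median -0.15). Only 1 of them, Ier3, reached an unadjusted p under 0.05 by limma, at -0.25 ± 0.12. Arc, which marks active synapses, differed by -0.29 ± 0.14, and Atf3, a stress transcription factor chosen after its values were seen, by -0.39 ± 0.26. Without no-peptide replicate 3 the median of this list was -0.025. Gadd45g, a stress-induced gene of the p53 and apoptosis list, differed by -0.39 ± 0.19, and that list was lower in 14 of 21 (median -0.028).

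All 8 genes named for the largest lower differences were higher in the injured than in the uninjured hemisphere without peptide, past the threshold. Against the uninjured right hemispheres of the same animals, compared unpaired, Ccl3 was higher by 4.09, Ccl2 by 2.54 and Hspa1a by 1.94 log2 units. Il1a and Il1b lay below the control level in all 10 right arrays, so no size is given for them. In all, 5088 of 28187 probe sets (18.1%) differed by limma at an adjusted p under 0.05. That comparison shares its 5 left arrays with the present one, so a high no-peptide array enters both. In the peptide comparison 0 of 28187 passed with the same number of arrays. Ccl3 with peptide, at 12.0 ± 0.35, still stood above its right hemisphere mean of 8.43 without peptide. For Tnfsf10 the left-right difference was 0.42 and for Gbp4 0.52, sizes like those of their peptide differences of -0.48 and -0.55. Tnfsf10 was above the control level in 9 of 10 left and 7 of 10 right arrays, so its sizes are uncertain.

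Adhesion molecules by which endothelium catches leukocytes had lower values. In that list 12 of 17 were lower with a median of -0.070. Icam1, the ligand of leukocyte integrins, had 9.54, 9.30, 9.84, 9.35 and 9.77 without peptide and 9.21, 9.32, 9.24, 9.41 and 9.09 with it, a difference of -0.31 ± 0.10. Here too no-peptide replicates 3 and 5 were highest and peptide replicate 5 lowest. Sele, or E-selectin, on which leukocytes roll, was chosen after its values were seen and differed by -0.37 ± 0.15. Interferon-stimulated genes were lower in 17 of 20, with a median of -0.076 and 0 at an unadjusted p under 0.05 by limma. Their mean was highest in no-peptide replicate 5 at 8.71, and without it the list median was 0.005 with 9 genes lower. Irf8, a transcription factor of microglia and macrophages, differed by -0.18 ± 0.06. NF-kB subunits and inhibitors were lower in 12 of 17 with a median of -0.012, and none reached an unadjusted p under 0.05 by limma.

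**Figure D3:**
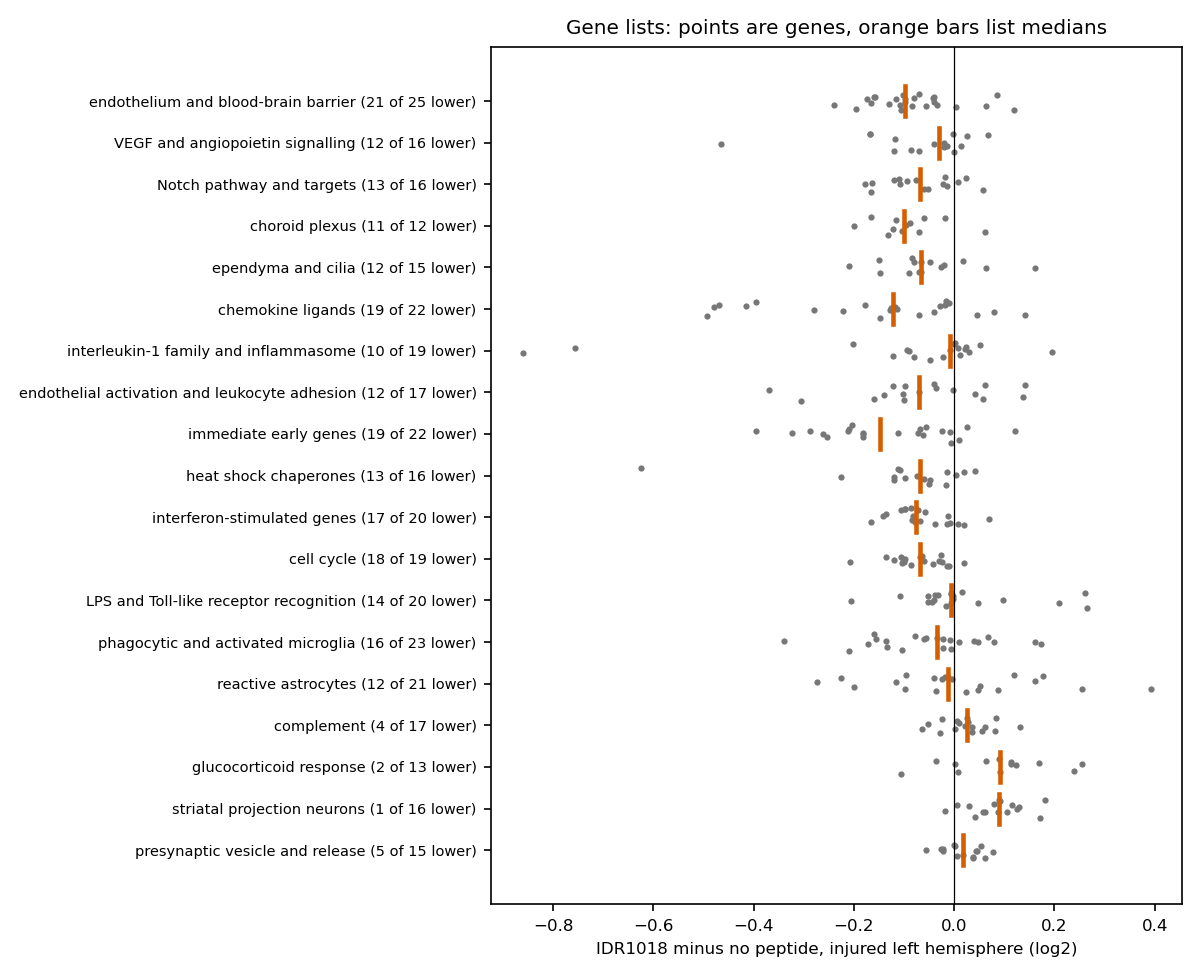
Difference between peptide and no peptide in the injured left hemisphere (log2, x axis) for every measured gene of 19 lists (rows), each point a gene and each orange bar the list median. Medians run from -0.15 for immediate early genes to 0.092 for the glucocorticoid response, and the widest points to the left are Il1a, Il1b and Hspa1a.

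Some receptors for microbial products had higher values. Tlr7, which senses single-stranded RNA in microglia, had 7.68, 7.74, 7.85, 7.84 and 7.76 without peptide and 8.02, 8.00, 7.84, 8.22 and 8.09 with it. Only peptide replicate 3 lay inside the no-peptide range, and the difference was 0.26 ± 0.06, or 1.2-fold higher. Tlr13, a sensor of bacterial ribosomal RNA, differed by 0.21 ± 0.09. Ly96, or MD-2, which holds LPS on Toll-like receptor 4, was chosen after its values were seen and differed by 0.27 ± 0.11. Tlr4 differed by -0.044 and lay below the control level in all 10 left arrays. Cd14, the LPS co-receptor, also chosen after its values were seen, differed by -0.21 ± 0.16. In the whole list 14 of 20 were lower with a median of -0.006, so these higher values were exceptions in it.

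Microglia and macrophage genes gave small and mixed values. Clec7a, or dectin-1, a receptor of phagocytic microglia, had 7.43, 7.40, 7.48, 7.31 and 7.91 without peptide against 7.24, 7.10, 7.10, 7.39 and 7.00 with it. Peptide replicate 4 lay inside the no-peptide range and the difference was -0.34 ± 0.11. Tyrobp, the adaptor of several microglial receptors, differed by -0.16 ± 0.06 and Fcrls, a homeostatic microglial gene, by -0.17 ± 0.06. Phagocytic and activated microglia genes were lower in 16 of 23 (median -0.035, but -0.086 without peptide replicate 4 and -0.012 without peptide replicate 1), with 5 lower and 1 higher at an unadjusted p under 0.05 by limma (2.17% and 1.92% of all genes), and homeostatic genes in 12 of 16 (median -0.051). Of the 4 measured microglial markers 1 was lower, P2ry12 at -0.064, and 3 were higher, up to 0.11 for Tmem119. Cd68, a lysosomal protein of phagocytes, averaged 10.01 without peptide and 10.05 with it, a difference of 0.05 ± 0.06. Complement genes were lower in 4 of 17 with a median of 0.025, which was -0.0012 without no-peptide replicate 4. Ms4a6c, a monocyte gene, differed by 0.24 ± 0.11, within a list of monocyte and border macrophage genes of which 7 of 15 were lower. Of the neutrophil markers 3 of 5 lay below the control level on average, and all 5 had lower values, with differences from -0.061 to -0.018. In the whole neutrophil list 9 of 15 were lower and 6 higher. Its median was -0.018 and changed sign in 3 fits without a single array. Lcn2, which neutrophils and reactive astrocytes make, ranged from 9.70 to 10.96 without peptide and from 10.32 to 11.07 with it, a difference of 0.39 ± 0.22.

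Among astrocyte genes, Nes and Sox9 are also used by progenitor cells and were lower in every peptide array. Nes, or nestin, had 7.96, 7.99, 7.97, 7.84 and 8.25 without peptide and 7.69, 7.71, 7.72, 7.83 and 7.70 with it. The groups met between peptide replicate 4 and no-peptide replicate 4 without crossing, and the difference was -0.27 ± 0.07. Sox9, a transcription factor of astrocytes and neural stem cells, had 10.37, 10.27, 10.48, 10.20 and 10.46 against 10.18, 10.15, 10.13, 10.17 and 10.10, a difference of -0.21 ± 0.05 without overlap. Gfap averaged 11.6 ± 0.09 in both groups, and its difference of -0.01 ± 0.05 had a 95% interval of -0.12 to 0.11. Reactive astrocyte genes as a list were lower in 12 of 21 with a median of -0.012, and homeostatic astrocyte genes in 7 of 16 with a median of 0.0007. Cell cycle genes were lower in 18 of 19 (median -0.068), led by Bub1, a spindle checkpoint kinase, at -0.21 ± 0.08. That median ranged from -0.098 with the Xist level as covariate to -0.037 without peptide replicate 3.

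Most measured targets of the glucocorticoid receptor had higher values with peptide. Fkbp5, a co-chaperone that the receptor induces and that restrains it, had 9.60, 9.29, 9.55, 9.42 and 9.46 without peptide and 9.72, 9.76, 9.66, 9.65 and 9.79 with it. All peptide arrays lay above all others. The difference was 0.25 ± 0.06, or 1.19-fold higher (95% interval 0.13 to 0.38). Zbtb16, a transcription factor induced by the same receptor and chosen after its values were seen, had 10.17, 9.68, 10.16, 9.98 and 10.20 without peptide. With peptide it held within 10.22 to 10.31, a difference of 0.24 ± 0.09. Mt2, a metal-binding protein of the same list, had 13.31, 13.43, 13.42, 13.37 and 13.36 against 13.46, 13.47, 13.54, 13.48 and 13.50, a small difference of 0.11 ± 0.04 without overlap. Its neighbour Mt1 differed by 0.15 ± 0.04. In the glucocorticoid response list 11 of 13 genes were higher with a median of 0.092, and 3 were higher and 1 lower at an unadjusted p under 0.05 by limma (1.92% and 2.17% of all genes). The lower gene was Nr3c1, the receptor itself, at -0.11 ± 0.05. Tsc22d3, Sgk1, Per1 and Pdk4, further targets chosen after their values were seen, differed by 0.09 to 0.12 with overlap. The list mean was 9.69, 9.55, 9.80, 9.66 and 9.78 without peptide, where replicate 2 was lowest, and 9.77, 9.76, 9.84, 9.76 and 9.78 with it. Without no-peptide replicate 2 the list median was 0.047.

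**Figure D4:**
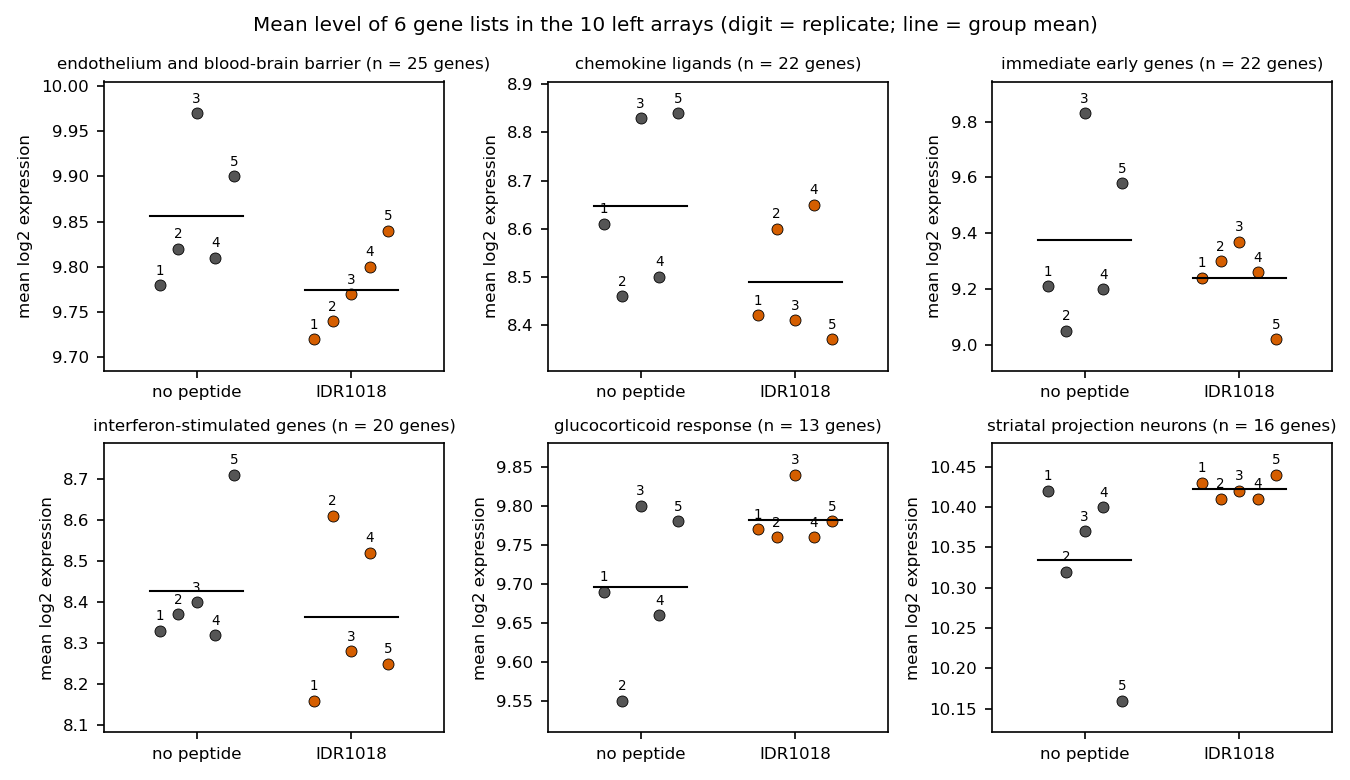
Mean log2 level (y axis) over the genes of 6 lists in each of the 10 left arrays, with replicate numbers and a line at each group mean. No-peptide replicates 3 and 5 are highest for chemokine ligands at 8.83 and 8.84, replicate 3 for immediate early genes at 9.83, and no-peptide replicate 5 is lowest for striatal neurons at 10.16.

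Striatal projection neuron genes were higher with peptide in 15 of 16, with a median of 0.089, and 3 were higher and 0 lower at an unadjusted p under 0.05 by limma (1.92% and 2.17% of all genes). Ppp1r1b, or DARPP-32, the dopamine-regulated phosphatase inhibitor of these cells, had 10.40, 10.23, 10.38, 10.30 and 9.99 without peptide and 10.48, 10.38, 10.42, 10.52 and 10.36 with it, a difference of 0.17 ± 0.07. No-peptide replicate 5 was lowest for this gene, for the dopamine receptor gene Drd1 and for Penk, which encodes enkephalin. Drd1 differed by 0.12 ± 0.05, and Penk, chosen after its values were seen, by 0.18 ± 0.10. Without that array the median of the list was 0.045. Snap25 had 13.35, 13.38, 13.35, 13.33 and 13.32 without peptide and 13.38, 13.40, 13.41, 13.43 and 13.41 with it, 0.06 ± 0.03 apart. Excitatory neuron genes were lower in 5 of 17 with a median of 0.018, and presynaptic genes in 5 of 15 with a median of 0.018. Glutamate receptor subunits were lower in 9 of 18 with a median of -0.004. Slc6a3, the dopamine transporter of midbrain neurons, had a difference of 0.38 ± 0.35 that rested on peptide replicate 1 at 10.47, and without that array it was 0.064.

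Choroid plexus and ependymal genes had lower values. In the choroid plexus list, the tissue that secretes cerebrospinal fluid, 11 of 12 genes were lower with a median of -0.10. Folr1, its folate receptor, had 8.74, 8.77, 8.80, 8.67 and 8.76 without peptide and 8.43, 8.42, 8.69, 8.67 and 8.52 with it, a difference of -0.20 ± 0.06. In the list for ependyma and cilia 12 of 15 were lower with a median of -0.066, among them Rsph1, a part of the ciliary radial spoke, at -0.21 ± 0.07. Oligodendrocyte genes were lower in 13 of 15 with a median of -0.033, and Mbp differed by -0.01 ± 0.07. The median of this list went from -0.085 to 0.018 when single peptide arrays were left out. Meningeal and fibroblast genes were higher in 10 of 15 with a median of 0.061 and 0 at an unadjusted p under 0.05 by limma, and that median was 0.0034 without no-peptide replicate 1 and 0.13 without peptide replicate 4.

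MicroRNA genes were among the largest higher values. Mir136, Mir376b and Mir541 lie in the imprinted Dlk1-Dio3 region of chromosome 12, which carries many neuronal microRNAs, and Mir221, a microRNA of vascular and immune cells on the X chromosome, had the smallest p among the listed microRNA genes. Their mature arms are shown because the probe sets measure the gene and do not tell the arms apart. Sequences are RefSeq's, 5′ to 3′, with GRCm38.p6 positions and the seed, bases 2 to 8, in capitals.
mmu-miR-136-5p (chr12:109595331-109595352, plus strand): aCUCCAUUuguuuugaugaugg
mmu-miR-136-3p (chr12:109595366-109595387, plus strand): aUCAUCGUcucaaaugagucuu
mmu-miR-376b-5p (chr12:109723471-109723492, plus strand): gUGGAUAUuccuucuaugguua
mmu-miR-376b-3p (chr12:109723508-109723528, plus strand): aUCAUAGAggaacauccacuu
mmu-miR-541-5p (chr12:109742422-109742446, plus strand): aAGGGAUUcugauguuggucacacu
mmu-miR-541-3p (chr12:109742466-109742487, plus strand): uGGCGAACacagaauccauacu
mmu-miR-221-3p (chrX:19146307-19146329, minus strand): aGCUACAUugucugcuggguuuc
mmu-miR-221-5p (chrX:19146344-19146369, minus strand): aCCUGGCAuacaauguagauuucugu
The 8 arms have 8 different seeds. Mir136 had 6.88, 6.56, 6.74, 6.78 and 6.42 without peptide and 7.29, 6.99, 6.85, 7.38 and 7.19 with it. Peptide replicate 3 alone lay inside the no-peptide range, 6 of 10 arrays were above the control level, and the difference was 0.46 ± 0.11, or 1.38-fold higher. Mir376b differed by 0.37 ± 0.14 and Mir541 by 0.39 ± 0.15, both with overlap. Mir541 was above the control level in 5 of 10 left arrays, and its no-peptide mean of 6.58 was below it. Mir221 had 6.04, 6.06, 5.86, 6.05 and 6.01 without peptide against 6.18, 6.25, 6.19, 6.34 and 6.25 with it. These groups did not overlap and differed by 0.24 ± 0.05, but all 10 arrays were below the control level. Mir128-1, a neuronal microRNA gene chosen after its values were seen, differed by 0.24 ± 0.09. Of the 20 measured genes in the list of inflammatory and neuronal microRNAs 11 were higher, with a median of 0.017.

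The remaining genes named for a small p belong to no list. Zfp119a, a zinc finger gene, had 7.78, 7.81, 7.80, 7.88 and 7.69 without peptide and 7.98, 7.98, 8.06, 7.92 and 8.09 with it, without overlap, for a difference of 0.21 ± 0.05. Cyb5r4, a cytochrome b5 reductase, differed by -0.17 ± 0.04 without overlap. Its other probe set, at 10.20 on average, differed by -0.10 ± 0.05. Spata48, Gm24463, Slc9a8, Mc5r, Olfr524, Ddx24 and Pdxk-ps were higher by 0.12 to 0.24, and C130074G19Rik was lower by value at -0.16 ± 0.04. Spata48 has another probe set, at 6.28 on average, which differed by -0.02 ± 0.06. The other probe sets of Gm24463 differed by 0.19 ± 0.08 and 0.08 ± 0.07. Depp1, a stress-induced autophagy regulator named for size, differed by 0.32 ± 0.12. The other genes named for size, 1700048O20Rik at 0.41 ± 0.20 and Prg4 at 0.33 ± 0.27, varied too widely for their unadjusted p to fall under 0.05 by limma.

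Several genes often followed after brain injury did not separate the groups at all. Hmox1, the heme-degrading enzyme induced by oxidative stress, differed by -0.05 ± 0.12. Il10, an anti-inflammatory cytokine, lay below the control level in all 10 arrays and differed by 0.05 ± 0.07. Camp, which encodes the mouse cathelicidin, a natural host defence peptide, averaged 6.92 ± 0.08 without peptide and 6.89 ± 0.05 with it. For Hmox1 the 95% interval was -0.30 to 0.20, so a difference of that size in either direction could not be told from none.

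In the uninjured right hemisphere the same animals were compared in the same way. There 1 probe set of 28187 (0.00355%), without a gene name, passed the threshold by limma and 1218 (4.32%) had an unadjusted p under 0.05. That call was lost with the animal as a random block, with the control level as covariate, with the replicate block and in 7 of 10 fits without a single array. Kdr was lower by value there too, at -0.31 ± 0.07 against -0.46 ± 0.07 in the left, and Aplnr differed by -0.21 ± 0.06 against -0.36 ± 0.08. Fkbp5 differed by 0.40 ± 0.07 against 0.25 ± 0.06, and Tlr7 by 0.28 ± 0.07 against 0.26 ± 0.06. The median of the glucocorticoid list was 0.17 in the right and 0.092 in the left, and that of the endothelium list -0.019 and -0.098. For cell cycle genes it was -0.068 in both. Right and left medians were -0.077 and -0.10 for choroid plexus and -0.056 and -0.051 for homeostatic microglia. They were -0.0098 and -0.12 for chemokine ligands and -0.012 and 0.089 for striatal projection neurons. Il1b, which lay below the control level in all 10 right arrays, differed there by -0.06 ± 0.06, and Hspa1a by -0.05 ± 0.05. Ccl3, in contrast, differed by -0.54 ± 0.12 in the right and -0.48 ± 0.20 in the left. Mir136 differed by -0.04 ± 0.11 in the right.

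The difference between the hemispheres was tested directly as an interaction of hemisphere and peptide. That fit took all 20 arrays as separate samples and did not use the pairing of the left and right array of an animal. Of 28187 probe sets 0 (0%) passed by limma, with 781 (2.77%) at an unadjusted p under 0.05. With the animal as a random block the count was also 0, with 924 at an unadjusted p under 0.05. The values of single genes below are from the unpaired fit. Il1b had a left difference below its right difference, by -0.70 ± 0.23 log2 units (unadjusted p = 0.00647 and adjusted p = 1 by limma). For Mir221 the left difference exceeded the right by 0.30 ± 0.07 (unadjusted p = 0.000211 and adjusted p = 1 by limma). Il1b lay below the control level in all 10 right arrays and Mir221 in all 10 left arrays, so neither size is clearly measured. For Kdr the unadjusted p was 0.174 by limma, with a 95% interval of -0.38 to 0.07. No gene named here was therefore shown to differ between the hemispheres in its response.

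**Figure D5:**
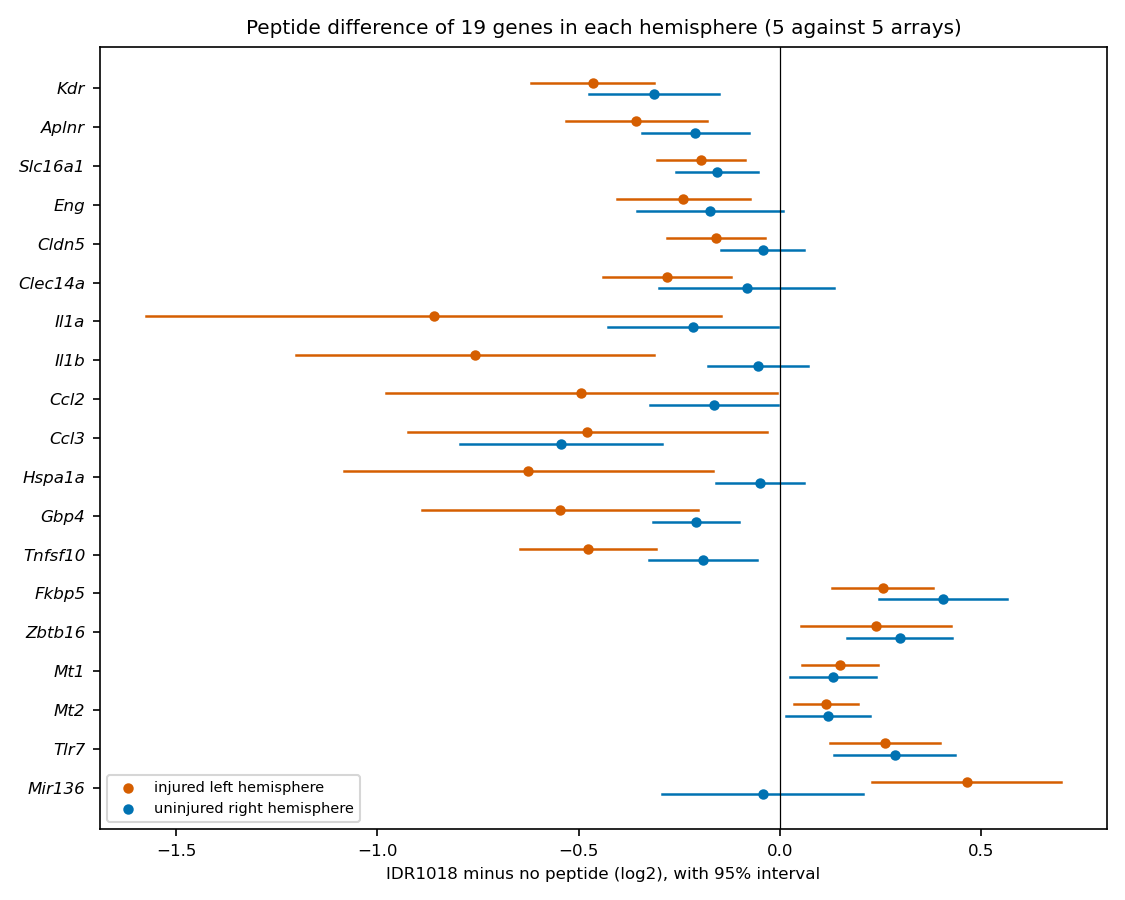
Difference between peptide and no peptide (log2, x axis) with 95% intervals for 19 genes in the injured left (orange) and uninjured right (blue) hemisphere, 5 against 5 arrays each. In both hemispheres 13 of the 19 genes have intervals on the same side of 0, whereas those of Eng, Cldn5, Clec14a, Il1b, Hspa1a and Mir136 exclude 0 in the left alone. Il1a and Il1b were above the control level in 0 of 10 right arrays and Tnfsf10 in 7 of 10. Both hemispheres come from the same animals, so their intervals are not independent. These intervals are not adjusted for the number of genes.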

How the data were processed

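Total RNA from the hemispheres was measured on 20 biotin-labelled Affymetrix arrays, 5 for each of 4 groups. Per the submitters' processing notes the authors summarised probes by RMA with affy 1.38.1, which gives levels on the log2 scale, and these were analysed unaltered. The genome build and chip definition are not given in the sources used here. RMA equalises the arrays' distributions, so a shift common to all genes would not be seen. Of 34760 probe sets, 6573 whose identifiers precede the first annotated one were treated as controls and left out. Of the 28187 tested, 21640 carried 1 gene symbol in the platform annotation, 1321 several and 5226 were not listed; 21553 matched GRCm38.p6 by Entrez identifier.

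The 10 left arrays entered an unpaired linear model in limma 3.58.1 (R 4.3.3), and p-values were adjusted by Benjamini-Hochberg across the 28187 probe sets, with 0.05 as threshold. The fit was tested on simulated data. The members and the 49 gene lists, with 787 of 847 genes measured, were chosen with earlier results of these data known. Genes were named by rule: among those with 1 symbol and a mean above the control level, the 12 higher and 12 lower with the smallest p and the 8 higher and 8 lower with the largest difference, without Xist and Y-linked genes; and, at any level, the 2 members of each described list with the smallest p and a panel of 17. Members of the lists named for their marker role or as the extremes of a list, such as Mfsd2a, Tlr4 or Tmem119, and genes said so in the text were chosen after their values were seen. Each specimen number in the labels has 1 left and 1 right array, read as 1 animal. The p-values measure the spread between these specimens, and precision is limited by having 5 arrays a group.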

Additional observations from a re-analysis of the deposited data

Results flagged for a closer look

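In the left groups of 5, each of 49 named genes was checked in both groups for an array far from the other 4, 98 checks in all, and 4 arrays stood apart; chance gives about 1 in 20. Il1a in peptide replicate 5 was at 6.72, where the other peptide arrays lay between 7.72 and 8.03. Nes in peptide replicate 4 was at 7.83 against 7.69 to 7.72 in the others, and Cspg4 in peptide replicate 5 at 9.40 against 9.17 to 9.23. Spata48 in no-peptide replicate 5 was at 7.39 against 7.21 to 7.24. Without peptide replicate 5 the difference of Il1a was -0.63 and that of Cspg4 0.13.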

How the results depend on the processing

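The 0 calls of the left comparison held under 21 of 22 alternatives, with 884 to 1683 probe sets at an unadjusted p under 0.05 by limma and the smallest adjusted p, 0.0554, with the Xist level as covariate; leaving out 1 array at a time gave 0 to 1, the 1 being Kdr without peptide replicate 5. The 1 call of the right hemisphere was 0 with the animal as a random block, with the control level as covariate and with the replicate block, and 0 to 1 when single arrays were left out. The test between hemispheres gave 0 throughout. The 5088 unpaired left-right calls without peptide (2597 higher and 2491 lower) became 2929 with the control level as covariate and 3681 to 4909 without single arrays. They became 6559 with all 20 arrays and the animal as a random block, and 2171 higher against 3004 lower after median centring. The cause was not tested. Left arrays are numbered 1 to 10 and right arrays 11 to 20, so hemisphere and array number cannot be told apart. Same-numbered left arrays with and without peptide come from different animals and their deviations correlated at -0.0419 to 0.257, so the replicate block is an alternative only; with it the left comparison had 0 calls, 1319 at an unadjusted p under 0.05 and a smallest adjusted p of 0.973, and the left-right count was 4778. Over all alternatives 5 of 149 genes changed sign, in 16 of 3341 values. When single arrays were left out, Cxcl10 ranged from -0.1528 to 0.0604, Hmox1 from -0.1258 to 0.0184, Gfap from -0.0334 to 0.0207, Cd68 from -0.0019 to 0.0762 and Mbp from -0.0649 to 0.0341; Gfap was 0.0031 with the control level as covariate. Within males and within females, differences were -0.44 and -0.53 for Kdr, and -0.31 and 0.19 for Cxcl10; genes named by p or size were chosen on these same arrays, so their within-sex signs support nothing. Within-sex differences, list medians under alternatives and left-out arrays in the other comparisons were added after seeing the data. The median interval of ± 0.114 is unadjusted and is not the smallest difference that the adjusted test could call. With 5 arrays a group, Kdr at -0.46 and Tnfsf10 at -0.48 did not pass that test.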
